A study of Mus musculus with 9 samples.

Results

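The genes described here are 10 heat shock genes that the study's tables list by symbol: Hspa8, Hspa1a, Hspa1b, Hsph1, Dnajb1, Hspb1, Hsp90aa1, Hsf1, Hspd1 and Hspe1. They are 10 of 23256 genes in the tables, and all 10 passed the filter on low counts that left 14912 genes. They were picked by name with the results of obese against control and of operated against obese glands already known. Their values in those comparisons are therefore a description, and nothing is supported with them.

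RNA was sequenced from the submandibular and sublingual glands of C57BL/6 mice, all female and 34 weeks old, with 3 libraries in each of 3 groups. The control group ate chow. The diet-induced obese group (DIO) had a diet with 60% of its calories from fat, started at 4 weeks of age and given for 20 weeks to produce obesity. The sleeve gastrectomy group (SG) was made obese the same way, and at 24 weeks of age about 80% of the stomach was cut away along its greater curvature, under 2% isoflurane and after a fast of 12 hours. The labels name no sham operation and do not say what DIO or SG mice ate in the weeks before collection, nor that each library is a separate animal. What the p-values capture is library-to-library spread, and some or all of it may be technical.

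Heat shock proteins are chaperones: they bind unfolded stretches of other proteins, help them fold, and keep them from clumping. In the cytosol, HSP70 proteins such as HSPA8 and HSPA1A do this in cycles of ATP use, a J-domain partner such as DNAJB1 hands them clients, and an exchange factor such as HSPH1 resets them. The factor HSF1 switches on the inducible members when unfolded protein builds up, through heat shock elements, repeated blocks of GAA and its complement TTC in their promoters. HSPD1 and HSPE1 work apart from these, as the folding chamber of the mitochondrial matrix and its lid. Salivary acinar cells make large amounts of secreted protein, but that protein is folded in the endoplasmic reticulum, by another set of chaperones.

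Promoter windows were looked up in a RefSeq table of build GRCm38.p6, which covers 250 bases before and 50 after an annotated start. This build is older than the one the counts were made on, and the windows were matched by symbol. Of the 10 genes, 7 had 1 or more windows, and Hspa8, Hsp90aa1 and Hsf1 had none there. The motif searched was 3 joined heat shock units, namely GAA, any 2 bases, TTC, any 2 bases and GAA, together with its reverse complement, which starts and ends with TTC, so that both strands were covered. All fixed letters of the motif were found in windows of 3 of the 7 genes, Hsph1, Hspd1 and Hspe1, against 0.662% of all 27025 genes with a window. With at most 1 of its 9 fixed letters changed it was found in 6 of the 7, Dnajb1 being the exception, against 8.15% of all genes. These genes are not all separate hits. Hspd1 and Hspe1 share the same element, and the windows of Hspa1a and Hspa1b are nearly identical.

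The stretches below show where these matches lie before the start, on the gene's own strand, with capitals marking the bases covered by matches of the 3-unit motif with at most 1 changed letter.
Hspe1: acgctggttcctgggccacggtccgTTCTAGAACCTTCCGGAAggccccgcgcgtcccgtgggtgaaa
Hsph1: gaatctTTCTCGAAGGCTCGAGAAgaagga
Hspb1: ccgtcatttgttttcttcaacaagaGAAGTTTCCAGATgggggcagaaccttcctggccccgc
Hspa1b: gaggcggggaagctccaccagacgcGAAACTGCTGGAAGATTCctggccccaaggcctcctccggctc

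The Hspe1 stretch lies at chr1:55088034-55088101 on the plus strand. Its capitals hold 2 overlapping matches with every fixed letter, so 4 heat shock units stand in a row. The same element is read from the other side by Hspd1: one of its 2 starts in the table lies 216 bases from the Hspe1 start, on the opposite strand, with the element between them, 144 to 127 bases before that Hspd1 start. The Hspd1 and Hspe1 genes thus stand head to head around it.

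The Hsph1 stretch lies at chr5:149636346-149636375 on the minus strand and holds 2 overlapping matches with 1 changed letter each. The match of Hsph1 with every fixed letter lies 36 to 48 bases after the same start, 1 of 2 in the table, and is not printed. The Hspb1 stretch lies at chr5:135887777-135887839 on the plus strand, with its match 117 to 105 bases before the start. The Hspa1b stretch lies at chr17:34959310-34959377 on the minus strand. Hspa1a has the same 68 bases at chr17:34972228-34972295, and over the whole windows of 300 bases the promoters of this gene pair differ at 4 positions. A match is a description of letters and not evidence that HSF1 binds there.

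The near-identity of Hspa1a and Hspa1b extends to their transcripts, so the split of reads between them is uncertain. In GENCODE M21, 47.1% of all runs of 100 bases in the Hspa1a transcript also occur in Hspa1b. For Hspa8, 63.4% of such runs occur in other annotated genes, 9 in number. The share was 47.5% for Hsp90aa1, 42.7% for Hspb1, 26.9% for Hspd1, 22.4% for Hspe1, and 0 for Hsph1, Dnajb1 and Hsf1. No source used here gives the treatment of reads matching several genes.

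The libraries held 36349885 to 43495564 counts, and members had 218 counts or more in each. Prol1, a secreted protein of the submandibular gland, stood at 54865 to 103460 CPM and the sublingual mucin Muc19 at 891 to 2198 CPM. Of the other sublingual markers, Galnt12 stood at 12.0 to 32.8 CPM, while Bpifb2 ran from 0 to 0.653 CPM. CPM stands for the count of a gene relative to its library's total, adjusted by TMM scaling. The library control 2 stood apart, with a mean rank correlation with the others of 0.973 against 0.985 to 0.987. Of the control libraries it was the highest for every parotid, B cell, T cell and adipocyte marker. Amy1 stood at 8377 CPM there, against 1673 CPM in control 1 and 412 CPM in control 3. Ms4a1 stood at 18.7 CPM, against 1.52 and 0.0241 CPM. The upper ends of the control ranges of these markers below are thus from control 2 alone. The 3 parotid markers summed to 487 to 9545 CPM in control, above all DIO libraries at 18.9 to 286 CPM, and ran from 15.2 to 1960 CPM in SG. The 3 endothelial markers summed to 57.4 to 77.6, 46.9 to 51.8 and 50.6 to 74.7 CPM in these groups. The summed CPM of the 4 B cell markers lay between 0.337 and 68.3 in control, between 8.95 and 23.9 in DIO and between 1.91 and 3.41 in SG, and skeletal muscle markers reached 37.1 CPM in SG 2 against at most 4.98 CPM in control and DIO. The 4 T cell markers summed to 0.938 to 34.5, 6.21 to 16.5 and 1.97 to 2.53 CPM in control, DIO and SG. Each of these B and T cell markers was lower in all SG libraries than in all DIO libraries, as were 9.74% of all genes. Hspa8 and Hsph1 had the same direction there. In DIO against control, where Hspa8 and Hsph1 were higher, each of these markers overlapped. For all of them but Cr2 the overlap came from control 2 alone, and every DIO library lay above control 1 and control 3. Cr2 stood at 0.258 CPM in DIO 3 and at 0.293 CPM in control 1. With control 2 included, the median log2 fold changes of DIO against control were -0.51 for B cells and 0.01 for T cells. Adipocyte markers summed to at most 24.4 CPM in control. The sums of these, of the macrophage markers and of the fibroblast markers overlapped between all groups. Of the single fibroblast markers, Col3a1 was lower in all SG libraries than in all control libraries, as were 5.22% of all genes. None of these markers was at 0 in all libraries, and the part of these cells in the results was not tested. In whole glands, fewer cells of a type and less RNA per cell cannot be told apart.

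Levels were compared between genes as FPKM, which divides counts by gene length. Hspa8, the constitutive HSP70 of the cytosol, was by far the most abundant, at 339.5 ± 123 FPKM (SD over 9 libraries), above 99.4% of the genes tested. The mitochondrial pair came next, Hspd1 at 50.01 ± 2.92 and Hspe1 at 47.8 ± 5.35 FPKM. Hsp90aa1, the inducible HSP90, stood at 27.9 ± 6.02 FPKM.

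Below these lay the small heat shock protein gene Hspb1 at 10.2 ± 2.04, the inducible HSP70 gene Hspa1b at 8.95 ± 3.93 and the J-domain gene Dnajb1 at 6.78 ± 1.32 FPKM. Hsf1 followed at 6.10 ± 0.745, Hsph1 at 5.33 ± 2.25 and Hspa1a at 3.04 ± 1.12 FPKM. The steps from Hspa8 to Hspd1, Hspe1 to Hsp90aa1, Hsp90aa1 to Hspb1 and Hsph1 to Hspa1a held in 9 of 9 libraries and were larger than the SD of either gene. The other 5 steps were smaller than the larger SD of the genes compared, and held in 6 to 8 libraries. The FPKM of Hsph1 rests on a gene length of 6413 bases implied by the tables, whereas its longest coding transcript in GENCODE M21 has 3802, so its place in this order depends on the length used.

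**Figure D1:**
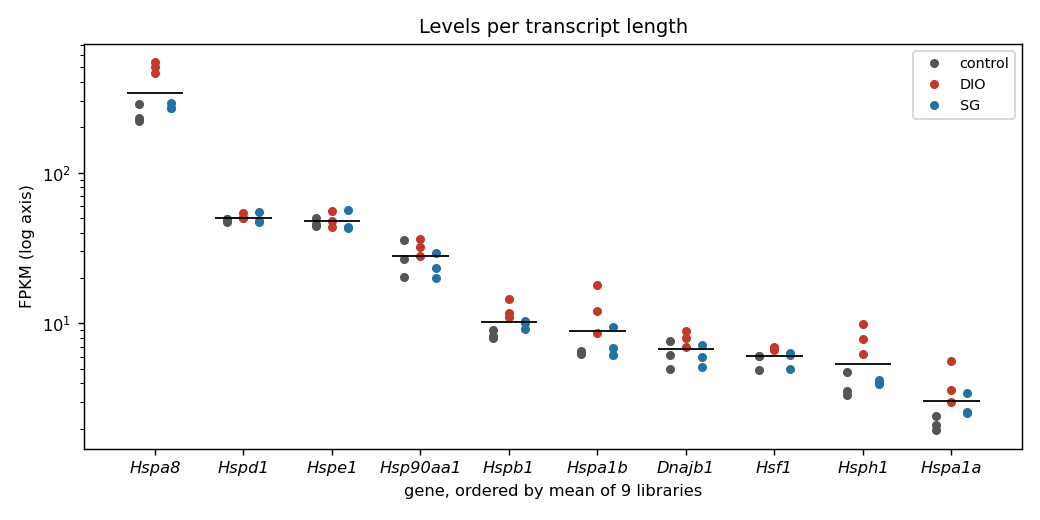
FPKM (log axis) of the 10 heat shock genes in each of 9 libraries, coloured by group, with a line at the mean of the 9. Hspa8 lies above all other genes in every library, and Hspd1 and Hspe1 overlap. The DIO points of Hspa8, Hsph1, Hspb1 and Hsf1 lie above all their other points. In CPM this holds for Hspa8 and Hsph1 only, since Hspb1 then overlaps SG and Hsf1 overlaps both other groups.

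Hspa8 carried most of the transcripts of the set. Its share of the summed FPKM of the 10 genes lay between 58.9% and 63.2% in control, between 72.6% and 73.2% in DIO and between 62.8% and 64.8% in SG. For the control libraries the summed FPKM lay between 371 and 453, for DIO between 628 and 737, and for SG between 411 and 461. The DIO libraries thus held the highest sums and the highest Hspa8 shares, with no overlap with either other group, while control and SG overlapped in both.

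Hspa8 (NCBI gene 15481) folds new proteins and strips clathrin coats from vesicles in unstressed cells. It stood at 515, 591 and 476 CPM in control 1 to 3, at 949, 914 and 1175 CPM in DIO 1 to 3, and at 577, 583 and 602 CPM in SG 1 to 3. Every DIO library lay above all 6 others, and the SG libraries lay within a narrow band inside or just above the control range. The means were 527 ± 58.5, 1012 ± 141 and 587 ± 12.97 CPM (SD, n = 3 each). That is a log2 fold change of 0.94 (SE 0.13) for DIO against control and -0.79 (SE 0.13) for SG against DIO.

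Hsph1 (15505), the HSP110 exchange factor of HSP70, followed the same course at a much lower level. Its values were 22.9, 30.0 and 23.8 CPM in control, 45.6, 38.2 and 65.9 CPM in DIO, and 25.8, 25.7 and 28.3 CPM in SG. All DIO libraries were above all others, and the SG libraries lay within the range of control. The log2 fold change was 0.96 (SE 0.18) for DIO against control and -0.91 (SE 0.18) for SG against DIO, and 0.71 and -0.65 without DIO 3.

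The stress-inducible HSP70 genes had fold changes near that of Hspa8 in DIO against control, at far lower levels and with wider spread among the DIO libraries. Hspa1b (15511) stood at 19.5, 17.3 and 18.9 CPM in control, at 30.7, 23.0 and 52.5 CPM in DIO, and at 26.9, 16.7 and 20.8 CPM in SG. Hspa1a (193740) stood at 5.80, 5.81 and 6.98 CPM in control, at 9.15, 8.04 and 16.3 CPM in DIO, and at 9.78, 6.83 and 7.77 CPM in SG. For both, DIO 3 was far above the rest, DIO did not overlap control, and SG 1 lay within the DIO range. The SD of Hspa1b was 43.1% of the mean in DIO, 5.97% in control and 24.0% in SG.

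The log2 fold change of DIO against control was 0.93 (SE 0.26) for Hspa1b and 0.85 (SE 0.25) for Hspa1a. It was 0.54 and 0.47 without DIO 3, so a single library set much of the size. For SG against DIO the values were -0.72 (SE 0.26) and -0.46 (SE 0.25), and -0.32 and -0.08 without DIO 3. The ratio of Hspa1b to Hspa1a FPKM ran from 2.43 to 3.34 over the 9 libraries, with group means of 3.001 in control, 3.13 in DIO and 2.61 in SG. The pair thus differed far less in its ratio than in its level, although shared reads can tie the values together.

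Hspb1 (15507), the small heat shock protein HSP25 that holds unfolded protein without using ATP, was low and tight outside DIO. It stood at 7.90, 7.93 and 7.43 CPM in control, at 9.49, 9.54 and 13.6 CPM in DIO, and at 9.55, 8.70 and 8.94 CPM in SG. DIO 1 and DIO 2 were level with SG 1, and DIO 3 stood above all of them. Its log2 fold change was 0.49 (SE 0.15) for DIO against control and 0.30 without DIO 3. For SG against DIO it was -0.26 (SE 0.15), and -0.07 without DIO 3.

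Dnajb1 (81489), the HSP40 partner of the inducible HSP70, stood at 17.1, 24.2 and 20.5 CPM in control, at 23.3, 21.5 and 29.7 CPM in DIO, and at 19.8, 22.1 and 17.7 CPM in SG. Its groups overlapped in every comparison. The log2 fold change was 0.27 (SE 0.15) for DIO against control, 0.12 without DIO 3, 0.15 without control 1 and 0.38 without control 2. For SG against DIO it was -0.32 (SE 0.15), and -0.17 without DIO 3.

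Hsp90aa1 (15519), which matures kinases and steroid receptors, varied more within control than between groups. It stood at 80.8, 99.4 and 59.7 CPM in control, at 92.7, 86.8 and 82.9 CPM in DIO, and at 84.7, 63.3 and 61.1 CPM in SG. The log2 fold change of DIO against control was 0.13 (SE 0.17), 0.29 without control 2, 0.07 without DIO 1 and -0.04 without control 3. Its direction in that comparison thus rested on 1 control library. For SG against DIO it was -0.33 (SE 0.17), and -0.49 without SG 1.

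Hsf1 (15499), the transcription factor that heat shock activates mainly by modifying and trimerizing the protein, had nearly flat RNA. It stood at 13.3, 15.1 and 16.0 CPM in control, at 15.8, 16.2 and 18.5 CPM in DIO, and at 12.98, 15.5 and 16.8 CPM in SG. The log2 fold change was 0.18 (SE 0.12) for DIO against control and -0.16 (SE 0.12) for SG against DIO, and the groups overlapped. Without DIO 3 the values were 0.11 and -0.08, and without SG 1 the second was -0.06.

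The mitochondrial genes did not show the course of Hspa8. Hspd1 (15510), the HSP60 chamber, stood at 129, 126 and 133 CPM in control, at 126, 124 and 133 CPM in DIO, and at 127, 136 and 130 CPM in SG. Its SD was 2.80% to 3.86% of the mean in the groups, the tightest of the 10 genes in DIO. The log2 fold change of DIO against control was -0.01, with a 95% interval of -0.18 to 0.16, and it turned to 0.08 with library totals in place of TMM, where the median of all genes was 0.10. For SG against DIO it was 0.04 (SE 0.08), and -0.04 with library totals.

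Hspe1 (15528), the HSP10 lid, stood at 36.1, 34.4 and 40.0 CPM in control, at 30.2, 34.7 and 44.5 CPM in DIO, and at 33.5, 41.7 and 35.98 CPM in SG. The groups overlapped fully. Its log2 fold change of DIO against control was -0.01, with a 95% interval of -0.32 to 0.29, and 0.07 with library totals. For SG against DIO it was 0.02 (SE 0.14), and -0.04 with library totals. Within each library the FPKM ratio of Hspd1 to Hspe1 was 0.890 to 1.24, with group means of 1.04, 1.06 and 1.06 in control, DIO and SG. By contrast the ratio of Hspa8 to Hspd1 lay between 4.41 and 5.79 in control, between 9.08 and 10.8 in DIO and between 5.26 and 5.69 in SG, so the DIO glands held more cytosolic Hspa8 per mitochondrial Hspd1 transcript in every library.

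**Figure D2:**
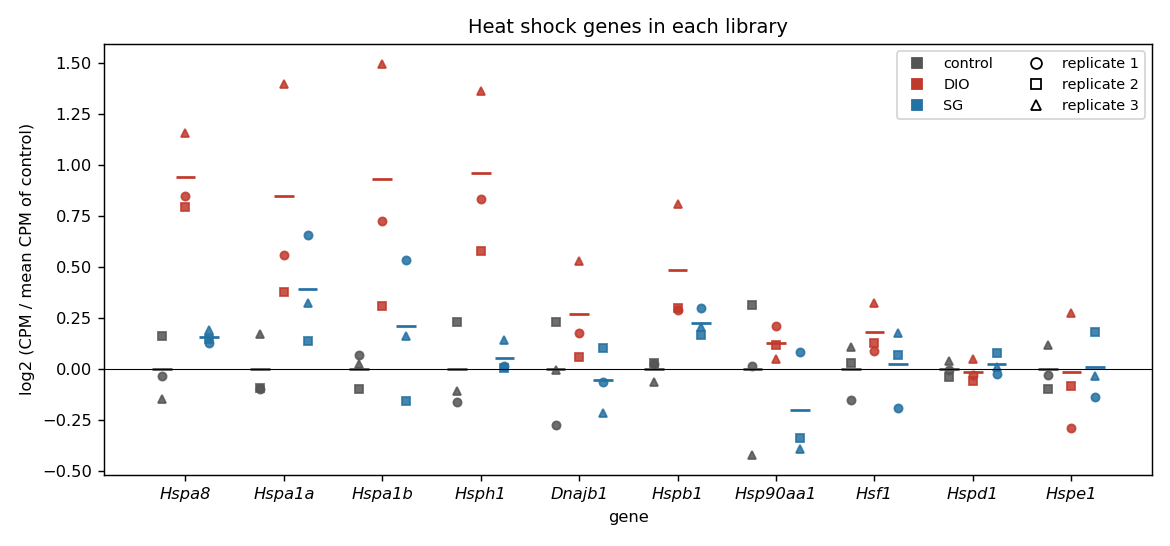
Log2 of the CPM of each library over the mean CPM of control, for the 10 heat shock genes, with groups in colour, replicates by symbol and a line at each group mean. DIO 3 is the highest DIO library for 9 of the 10 genes, Hsp90aa1 being the exception, and Hspd1 stays near 0 in all libraries.

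The libraries of a group also differed together. In CPM, DIO 3 was highest of the DIO libraries for 9 of 10 genes, and for 8 of them, all but Hspd1, it was also the highest of all 9 libraries. No share over all genes is given beside this count, and it depends on the measure. In FPKM, DIO 3 was the lowest DIO library for Hspd1, at 49.8. For Hspe1 it stood at 55.9 FPKM, below SG 2 at 56.7 FPKM. Deviations from the group means were correlated at r = 0.93 between Hspa8 and Hsph1, 0.95 between Hspa1a and Hspa1b and 0.86 between Hspd1 and Hspe1. Hsp90aa1 stood apart, with r = 0.33 to Hspa8, -0.69 to Hspd1 and -0.64 to Hsf1. These values describe 9 libraries in which the group means were removed, the genes of a library share its scaling and depth, and Hspa1a and Hspa1b also share transcript sequence.

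**Figure D3:**
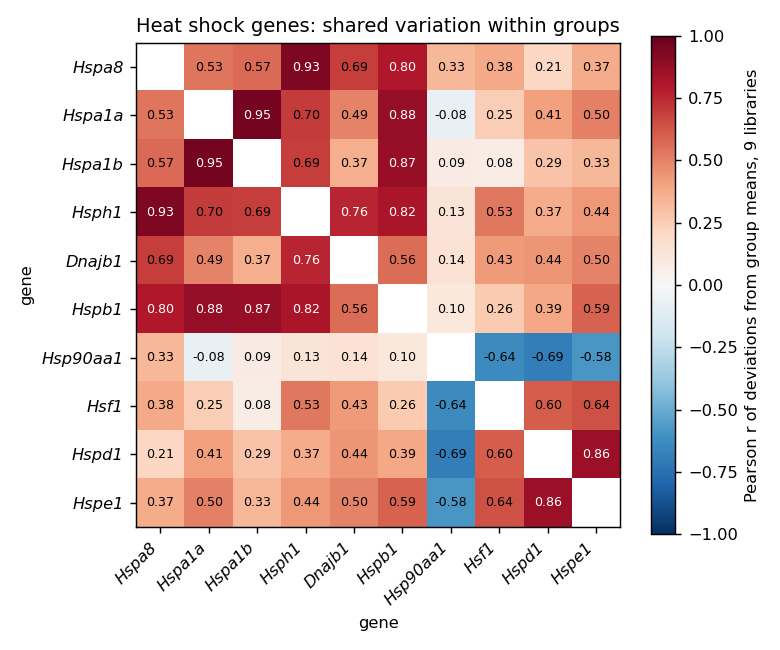
Pearson correlation between pairs of the 10 heat shock genes, over 9 libraries, of log2 CPM after the group means were removed. Hspa8 pairs with Hsph1 at 0.93, Hspa1a with Hspa1b at 0.95 and Hspd1 with Hspe1 at 0.86. Hspb1 is at 0.80 with Hspa8, 0.82 with Hsph1, 0.88 with Hspa1a and 0.87 with Hspa1b. Hspa8 is at 0.53 with Hspa1a and 0.57 with Hspa1b, and Hsp90aa1 is near 0 or negative with most genes.

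Over all 14912 genes, edgeR's quasi-likelihood test at an adjusted p under 0.05 called 14 in DIO against control, or 0.0939%, with 8 of them higher (0.0536%) and 6 lower (0.0402%). Of the 10 heat shock genes 1 was called, Hspa8, in the comparison that served to choose them. The call was kept without control 2 or SG 1 and was lost without any 1 of the other 7 libraries, while the log2 fold change of Hspa8 stayed between 0.82 and 1.01. Without control 2 edgeR called Hsph1 as well. DESeq2 called Hspa8, Hsph1 and Hspa1b, and 185 genes in all. In 5 of the 10, Hspa8, Hspa1a, Hspa1b, Hsph1 and Hspb1, all DIO libraries lay above all control libraries, as in 8.94% of all genes. In 0 of the 10 did all lie below, as in 7.38% of all genes. The median log2 fold change of the 10 was 0.38, against 0.01 over all genes tested.

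In SG against DIO edgeR called 0 of the 10 and 0 of all genes (0%), with an unadjusted p under 0.05 for 3 of the 10 and for 8.93% of all genes. DESeq2 called Hspa8 and Hsph1 and 80 genes in all. Without control 2, a library of neither group, edgeR called Hspa8, Hsph1 and 117 genes in all. All SG libraries lay below all DIO libraries for 2 of the 10, Hspa8 and Hsph1, and for 9.74% of all genes. They lay above all DIO libraries for 0 of the 10 and for 6.57% of all genes. The median log2 fold change of the 10 was -0.32, against -0.00467 over all genes. DIO against control and SG against DIO share the DIO libraries, so a high DIO library enters both with opposite sign.

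The comparison of SG with control asks whether operated glands differ from those of mice that were never obese, and the genes were not picked on it. It is not independent of the choice, since it uses the same libraries and its log2 fold changes are the sums of those of the other 2 comparisons. None of the 10 passed edgeR's test, where 0% of all genes did. At an unadjusted p under 0.05 the count was 0 of 10 against 8.10% of all genes, and DESeq2 also called 0 of the 10, and 54 genes in all. Hspa8 had a log2 fold change of 0.16 (95% interval -0.12 to 0.43, adjusted p = 0.789 in edgeR's quasi-likelihood test). It ranged from 0.09 without control 3 to 0.23 without control 2. For Hsph1 it was 0.06 (-0.34 to 0.45, adjusted p = 0.956 in the same edgeR test), and 0.18 without control 2.

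Hspb1 was the one gene of the 10 whose SG libraries all lay to one side of the control libraries, the higher, as did 6.63% of all genes, with 5.22% lower. Its log2 fold change was 0.22 (95% interval -0.10 to 0.55, adjusted p = 0.726 in edgeR's quasi-likelihood test). Hspa1a had a log2 fold change of 0.39 (-0.16 to 0.94, adjusted p = 0.715 in edgeR), and 0.24 without SG 1. For Hspa1b it was 0.21 (-0.36 to 0.78), and 0.01 without SG 1. For Hsp90aa1 it was -0.20 (-0.58 to 0.19), and it was -0.02 without control 2, -0.37 without control 3, -0.36 without SG 1 and -0.11 without SG 3. For Dnajb1 it was -0.05 (-0.39 to 0.28), and for Hsf1 0.03 (-0.24 to 0.29). The interval was narrowest for Hspd1, at -0.15 to 0.19 around 0.02, and for Hspe1 it was -0.29 to 0.31 around 0.01. A p that misses the threshold does not show that SG and control glands are alike, and for all of the 10 but Hspa8, Hspa1b and Hsph1 the interval includes a change as large as that listed for DIO against control.

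**Figure D4:**
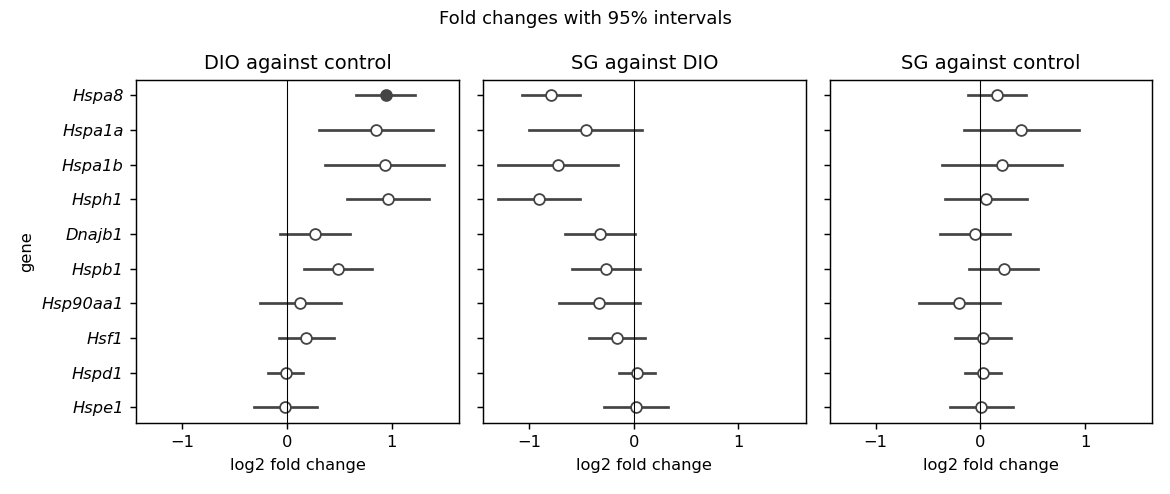
Log2 fold change of the 10 heat shock genes in each comparison, with 95% intervals from edgeR's fit of all 9 libraries; the filled point is the gene called over all genes tested. Hspa8 and Hsph1 lie to the right in DIO against control, to the left in SG against DIO and near 0 in SG against control.

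The other genes of the chaperone network were read from lists chosen by function. Of 88 tested chaperone, co-chaperone and heat shock factor genes outside the list of endoplasmic reticulum chaperones, 0 were called in any of the 3 comparisons by edgeR. DESeq2 called 4 in DIO against control, Hsp90ab1, Stip1 and St13 higher and Hspa13 lower, 0 in SG against DIO, and Hspa13, lower, in SG against control. Over all genes DESeq2 called 185, 80 and 54 in these comparisons. In edgeR's test an unadjusted p under 0.05 was reached by 15, 9 and 3 of the 88 genes in DIO against control, SG against DIO and SG against control, against 10.3%, 8.93% and 8.10% of all genes. Their median log2 fold change was 0.05, 0.02 and 0.05. For the counts by direction below, 7705 of all 14912 genes were higher and 7207 lower in DIO against control.

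HSP90 and its co-chaperones had 6 of 16 members with all DIO libraries above control, against 8.94% of all genes, and 3 with all below, against 7.38%, and a median log2 fold change of 0.08. Hsp90ab1, the constitutive HSP90, stood at 611, 624 and 625 CPM in control, 800, 761 and 959 CPM in DIO, and 697, 726 and 735 CPM in SG (log2 fold change of DIO against control 0.44, SE 0.11, adjusted p = 0.212 in edgeR's test). Its DIO libraries lay above all others and its SG libraries above all control libraries. Stip1, which passes clients from HSP70 to HSP90, averaged 51.6 ± 1.66, 71.0 ± 12.4 and 55.1 ± 3.54 CPM in control, DIO and SG (0.46, SE 0.11).

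Among HSP70 co-factors, 0 of 13 were called and the median was -0.02 in DIO against control. St13, the HSC70-interacting protein that stabilizes HSP70 on its client, had the smallest p, with 68.7 ± 2.28, 88.1 ± 3.40 and 75.9 ± 4.25 CPM in control, DIO and SG (log2 fold change 0.36, SE 0.08, adjusted p = 0.170 in edgeR's test). The polyubiquitin gene Ubb averaged 346 ± 17.3, 416 ± 41.5 and 388 ± 48.0 CPM. Bag3, an HSF1 target in many cell types and a partner of HSP70 in selective autophagy, averaged 55.0 ± 5.74, 49.7 ± 5.27 and 49.1 ± 3.18 CPM. Its mean was thus lower in DIO than in control, with a log2 fold change of -0.15 (SE 0.10).

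The J-domain proteins had 7 of 13 higher in DIO and a median of 0.01, with 0 called. Dnaja4 averaged 13.4 ± 1.24, 17.1 ± 2.82 and 13.04 ± 0.850 CPM and Dnaja1 65.4 ± 9.43, 73.6 ± 5.82 and 58.7 ± 2.61 CPM in control, DIO and SG. Dnajb14 averaged 15.2 ± 0.952, 18.4 ± 1.20 and 16.3 ± 2.10 CPM. The other HSP70 and HSP110 genes had 5 of 7 lower in DIO, 0 called and a median of -0.06. Hspa13, a microsomal HSP70-like protein, averaged 72.9 ± 7.998 CPM in control, 49.1 ± 6.16 in DIO and 49.3 ± 6.51 in SG (log2 fold change of DIO against control -0.57, SE 0.13, adjusted p = 0.176 in edgeR's test). Hspa4l and Hspa12a were low, at 7.40 to 10.2 and 1.34 to 2.20 CPM in the group means.

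Small heat shock proteins other than Hspb1 had 0 of 5 called. Hspb8, the partner of BAG3, averaged 55.2 ± 2.96, 51.8 ± 7.11 and 47.5 ± 9.61 CPM, Hspb6 6.69 ± 1.53, 4.74 ± 0.428 and 5.32 ± 1.44 CPM, and Hspb2 under 0.5 CPM in each group mean. Of heat shock factors and their regulators 0 of 5 were called. Hsf2 averaged 4.62 ± 0.128, 5.68 ± 0.947 and 5.57 ± 1.92 CPM, and Hsf2bp averaged 1.19 ± 0.337, 1.69 ± 0.611 and 1.27 ± 0.579 CPM. Hsbp1l1, named for its likeness to an HSF1-binding protein, averaged 11.5 ± 0.832, 8.26 ± 1.31 and 11.5 ± 0.926 CPM (log2 fold change of DIO against control -0.48, SE 0.13, adjusted p = 0.257 in edgeR's test).

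Mitochondrial chaperones and proteases had 8 of 16 higher and 8 lower in DIO against control, with a median of 0.00 and 0 called. Hspa9, the HSP70 that pulls proteins into the matrix, stood at 243, 224 and 283 CPM in control and averaged 214 ± 11.0 CPM in DIO and 284 ± 89.5 CPM in SG. Its SG spread came from SG 2, at 387 CPM against 224 and 242 CPM in SG 1 and SG 3, the library with the highest muscle markers. Hscb, a J-domain protein of iron-sulphur assembly, averaged 4.73 ± 0.245, 3.795 ± 0.699 and 5.91 ± 0.534 CPM, and Grpel2, an exchange factor, 18.5 ± 2.31, 21.0 ± 0.587 and 19.3 ± 1.53 CPM. The TRiC chaperonin and prefoldin, which fold actin and tubulin, had 10 of 14 higher in DIO, 0 called and a median of 0.06, with Cct3 at 57.9 ± 2.39, 68.9 ± 3.88 and 62.4 ± 6.88 CPM. Pfdn2 averaged 18.7 ± 0.922, 20.9 ± 1.39 and 21.7 ± 1.72 CPM, and Vbp1 16.1 ± 3.78, 12.3 ± 0.925 and 13.5 ± 2.64 CPM.

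Chaperones of the endoplasmic reticulum had 9 of 18 higher and 9 lower in DIO against control, with a median of 0.00 and 0 called. Hspa5, the HSP70 of that compartment, singled out here for its role after its values were seen, had a log2 fold change of -0.09 (SE 0.13). The 3 genes with the smallest p-values of the list over the 3 comparisons are given by their DIO against control values, namely Serpinh1, a collagen chaperone (0.34, SE 0.10), Pdia6, a disulphide isomerase (0.30, SE 0.09), and Creld2, which is induced by unfolded protein in that compartment (0.36, SE 0.13), with adjusted p-values of 0.277, 0.289 and 0.373 in edgeR's test. Their SG against DIO values were -0.14, -0.27 and -0.46, and for Creld2 this was the comparison with the smallest p (SE 0.13, adjusted p = 0.416 in edgeR's test).

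**Figure D5:**
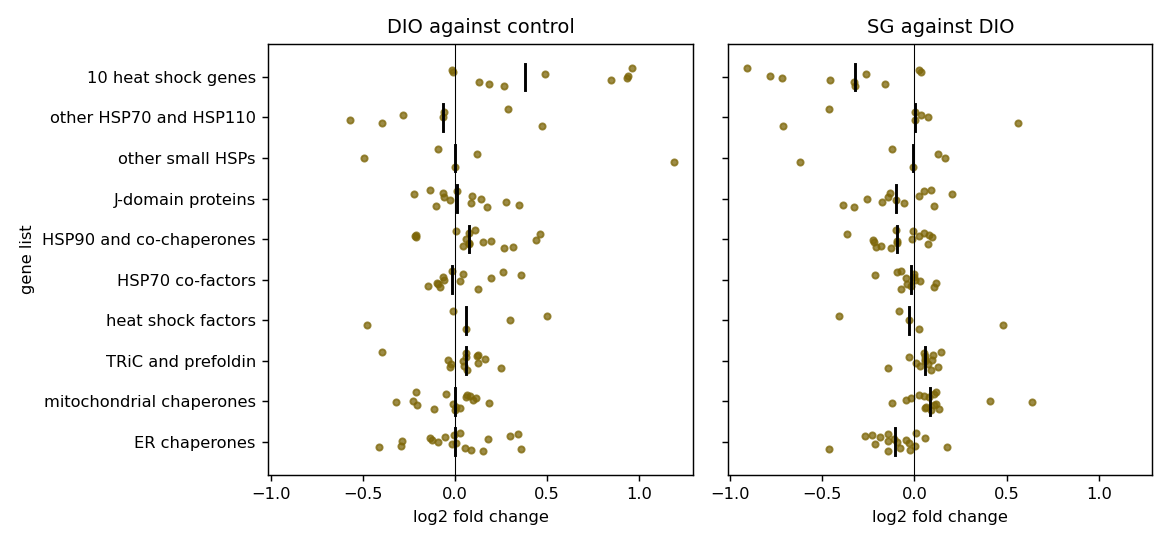
Log2 fold change of each tested gene of the chaperone lists in DIO against control (left) and SG against DIO (right), with 1 point per gene and a line at the median of the list. The medians of the 10 heat shock genes are 0.38 and -0.32, and those of the other lists lie between -0.11 and 0.08.

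The cold-induced RNA-binding proteins, whose RNA falls with warmth and rises in the cool, were measured beside the heat shock genes. Rbm3 averaged 104 ± 7.10 CPM in control, 83.2 ± 8.23 in DIO and 89.4 ± 4.64 in SG, and Cirbp 19.8 ± 0.375, 16.3 ± 2.57 and 21.99 ± 3.38 CPM. Both lay below control in all DIO libraries, as did 7.38% of all genes, and neither was called (log2 fold change -0.32 and -0.28, adjusted p = 0.289 and 0.516 in edgeR's test). Rbm3 also lay below control in all SG libraries, as did 5.22% of all genes, whereas Cirbp overlapped between SG and control. In SG against DIO, Cirbp was higher in all SG libraries than in all DIO libraries, as were 6.57% of all genes. Rbm3 overlapped there, and neither gene was called. Immediate early genes, which respond within minutes to handling, had 8 of 13 higher in DIO with a median of 0.21 and 0 called. In SG against DIO 12 of the 13 were lower, against 7603 of all 14912 genes, with a median of -0.57 and 0 called by edgeR. For 3 of the 13 all SG libraries lay below all DIO libraries, against 9.74% of all genes. Btg2 averaged 36.4 ± 3.40, 51.2 ± 14.4 and 31.0 ± 4.98 CPM, with DIO 3 highest, and DESeq2 called it lower in SG than in DIO. Control 3 stood apart for Fosb, at 10.2 CPM against 0.0260 to 0.681 CPM in the other 8 libraries, and for Egr2, at 2.04 CPM against 0.104 to 0.698 CPM. Among clock genes, edgeR called Nr1d1 (log2 fold change -1.45, SE 0.17), Dbp (-1.56, SE 0.21) and Bhlhe41 (-0.90, SE 0.08) lower in DIO than in control. The part of temperature, clock phase or handling in the heat shock values was not tested.

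The genes most alike to Hspa8 were sought over the 9 libraries among 7615 genes with a mean of at least 10 CPM. Hsph1, another of the 10, came first, with a Pearson r of 0.97 of log2 CPM. Both genes were picked with their DIO values known, so this rank describes them and supports nothing. The 6 closest others were Clcn4, a chloride and proton exchanger (0.97), the kinase Lrrk1 (0.96), Extl3, of heparan sulphate synthesis (0.95), Chmp7, of the ESCRT machinery (0.94), Lurap1l (0.94) and Maged1 (0.93). Their differences were smaller, as with Clcn4 at 53.7, 64.0 and 55.8 CPM in the means of control, DIO and SG. Hspa1b ranked 134th (0.82) and Dnajb1 344th (0.71). Hspb1 (0.86) and Hspa1a (0.77) had means under 10 CPM and were not ranked.

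For Hspd1 the closest were Ptdss2, of phosphatidylserine synthesis (0.99), the mitochondrial ribosomal gene Mrpl14 (0.98), Cxxc5 (0.97), the mitochondrial malic enzyme gene Me3 (0.96), Pdlim4 (0.96) and Timm17a, of the import channel of the inner membrane (0.96). Hspe1 ranked 270th with 0.83 and Hspa8 had -0.16. Without control 2 the values of the 6 genes closest to Hspa8 were 0.94 to 0.98. The 9 libraries share depth and scaling between genes, and in Hspa8 the DIO libraries form a separate cluster, so these values only rank likeness.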

How the data were processed

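Polyadenylated RNA of 9 libraries was sequenced after TRIzol extraction and VAHTS Universal V6 library preparation, per the labels' protocols. HISAT2, Salmon and build GRCm39 are listed in the submitters' processing notes, with no version or role, while the annotation and strand setting were not given in the sources used here. Whole-number read counts per gene and, in a second table, FPKM of the same genes were deposited by the authors. The counts were tested with edgeR 4.0.16 in R 4.3.3 (quasi-likelihood F test, TMM scaling, filterByExpr, 1 fit of 9 libraries, Benjamini-Hochberg adjustment, threshold 0.05), and the procedure was tested on simulated data. FPKM served to compare genes and, with limma 3.58.1 on log2(FPKM + 0.1) or log2(FPKM + 1), as an alternative. DESeq2 1.42.0, other scalings and filters, 2 groups only, a replicate block and leaving out each library were the other alternatives. Depths of 36349885 to 43495564 counts put 3 counts at 0.0690 to 0.0825 CPM. Replicate libraries differed by a chi-square of 28.4 to 216 per degree of freedom, so none was a copy.

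The 10 genes and all lists were chosen with earlier results of these data known. Each of the 10 was named whatever their result. From each list the genes called were named, or, with fewer than 3 called, the 3 with the smallest p (2 in the short list). Some genes that this rule names are not reported here. Likeness was the Pearson correlation of log2 CPM with a prior count of 2.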

Additional observations from a re-analysis of the deposited data

How the results depend on the processing

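Of the 10 genes, 1 was called in DIO against control. The count was 3 with DESeq2, 2 with library totals, 2 with no filter on low counts and 0 with 2 groups only, and 0 to 2 when 1 library was left out (2 without control 2). In SG against DIO the count of 0 became 2 with DESeq2, 2 with 2 groups only and 0 to 2 with 1 library left out. In SG against control it was 0 throughout. Over all genes, the 14 calls in DIO against control became 185 with DESeq2, 22 with library totals, 37 with no filter, 4 with 2 groups only, and 0 (without DIO 1) to 140 (without control 2) with 1 library left out. The 0 calls in SG against DIO became 80 with DESeq2, 179 with 2 groups only, 6 with no filter, and 0 to 117 (without control 2). The 0 calls in SG against control became 54 with DESeq2, 3 with no filter, 2 with limma at either pseudocount, and 0 to 6 (without SG 1). The replicate block gave 1, 0 and 0 calls among the 10 genes and 18, 0 and 0 over all genes. Same-numbered libraries deviated together at r = -0.09 to 0.31 in DIO against control, 0.04 to 0.20 in SG against DIO and -0.02 to 0.08 in SG against control, so they were not treated as pairs. The log2 fold changes that turned direction under some setting had sizes of 0.13 or less. In DIO against control Hspd1 was 0.0802 with library totals, 0.0804 with limma on log2(FPKM + 0.1) and 0.0790 on log2(FPKM + 1), and Hspe1 was 0.0691, 0.0641 and 0.0630. In SG against DIO these 3 settings gave -0.0408, -0.0432 and -0.0424 for Hspd1 and -0.0404, -0.0443 and -0.0434 for Hspe1. Hspe1 in SG against control was -0.00260 with 2 groups only. With 1 library left out, DIO against control ran from -0.0432 to 0.29 for Hsp90aa1, -0.0543 to 0.0090 for Hspd1 and -0.18 to 0.0866 for Hspe1, and SG against DIO from -0.0871 to 0.19 for Hspe1. SG against control then ran from -0.0159 to 0.18 for Hsph1, -0.17 to 0.0656 for Dnajb1, -0.0558 to 0.12 for Hsf1, -0.0116 to 0.0481 for Hspd1 and -0.0907 to 0.0787 for Hspe1. Fits with 1 library left out assume that a smaller group varies like the others, and the cause of these changes was not tested.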
